A study of Caenorhabditis elegans with 2 samples.

Results

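Cuticle collagen genes of Caenorhabditis elegans were examined for binding of XND-1, a chromatin protein of the worm germline that is known for its enrichment on autosomes. All protein-coding genes of the WBcel235 annotation whose name begins with col-, rol- or sqt- were taken, and this gave 163 of 19973 genes on the nuclear chromosomes. Of these, 156 were col- genes, 4 were rol- genes and 3 were sqt- genes. The rule uses names only, although the family was chosen with earlier results of these data known. X carried 27 of them and the autosomes 136.

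The chromatin came from 1 group of worms with 2 biological replicates. They were hermaphrodites of strain QP0661, a transgenic line in which XND-1 bears GFP-FLAG at its C terminus, collected as young adults 50 h after synchronization as starved L1 larvae. Sonicated chromatin of whole animals was precipitated with an antibody against GFP and sequenced (ChIP-seq). There was no second condition, and no peak list from untagged worms was used here, so the collagen genes were compared with all protein-coding genes and X with autosomes. Germline and epidermis were not separated: binding in a few cells and weak binding in many cannot be told apart.

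Cuticle collagens are secreted by the epidermis, which builds a new cuticle before each moult. Their central part is a repeat of glycine followed by a pair of other residues (Gly-X-Y), which lets 3 chains wind into a triple helix, and every glycine codon begins with GG. Mutations in several of them change body shape, and the names rol- and sqt- stand for the roller and squat phenotypes. The names matched the proteins in nearly every case. At least 10 Gly-X-Y triplets in a row were found in 161 of the 163 translated coding sequences, with a median longest run of 21 triplets, and in 203 of all protein-coding genes. The exceptions were col-17 and rol-3. In col-17 the annotated reading frame held no run longer than 1 triplet, but another frame held 21. rol-3, which encodes a receptor tyrosine kinase-like protein of 2481 residues and no collagen, had at most 2 in any frame. The proteins had a median of 304 residues.

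Peaks came from 4 deposited lists on ce11, the same build as WBcel235. The list thresholded by irreproducible discovery rate (IDR), a measure of how well replicates rank the same peaks, held 1841 peaks. The pooled list held 24467 peaks, replicate 1 alone had 22772 and replicate 2 alone had 22364. These last 3 are loose lists that hold background regions, so a gene's presence in them is read against the share of all genes. Each peak has a summit and a score given by the authors' caller, which has no unit and is comparable only within a list. Scores ran from 65.6 to 2548 in the IDR-thresholded list and from 12.9 to 2548 in the pooled list. A gene was called occupied when a summit lay from 500 bp upstream to 200 bp downstream of any of its annotated 5′ ends, called its promoter window below. Depth is unknown, because the lists carry no read counts, and the intervals given are exact Clopper-Pearson 95% intervals that cover only the number of genes.

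Cuticle collagen promoters were nearly absent from the IDR-thresholded list. Of 163 genes, 1 had such a summit in its promoter window (0.613%, interval 0.0155% to 3.37%), against 1334 of all 19973 protein-coding genes (6.68%). None of the 27 X genes was occupied, which allows a share of up to 12.8%, against 0.366% of all X genes. Among the 136 autosomal collagen genes the share was 0.735% (0.0186% to 4.03%), against 7.68% of all autosomal genes. The X share of all genes was already so low that 27 genes could not show a lower one, whereas the interval of the autosomal collagen genes lay below the share of all autosomal genes. The median distance from a collagen gene to the nearest IDR-thresholded summit was 32164 bp, against 24923 bp for all genes, and on autosomes 26544 bp, against 19125 bp. Such a summit lay within 1000 bp of a 5′ end for 2 collagen genes (1.23%), col-38 and col-63, against 9.07% of all genes.

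The loose lists gave the same order. A pooled summit lay in the window of 26 of 163 collagen genes (16%, interval 10.7% to 22.5%), against 27.7% of all protein-coding genes. In replicate 1 the count was 24 (14.7%), against 27.3% of all genes, and in replicate 2 it was 19 (11.7%), against 25.6%. Both replicates had a summit in the window of 10 collagen genes (6.13%, interval 2.98% to 11%), against 17.5% of all genes. Each of these intervals lay below the share of all genes. With a wider window, 1000 bp upstream to 500 bp downstream, the pooled shares no longer differed beyond the interval: 66 collagen genes had a pooled summit (40.5%, interval 32.9% to 48.4%), against 39.5% of all genes. The other shares stayed lower in that wider window. Both replicates had a summit there in 16.6% of collagen genes, against 27% of all genes. For the IDR-thresholded list it was 1.23%, against 8.5%. In all, 38 collagen genes had a summit in at least 1 of the 3 loose lists and 125 in none of the lists. Besides the 10, 14 were listed in replicate 1 only and 9 in replicate 2 only, so 30.3% of the genes with a summit in either replicate had it in both, against 49.3% over all protein-coding genes with one in either.

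**Figure D1:**
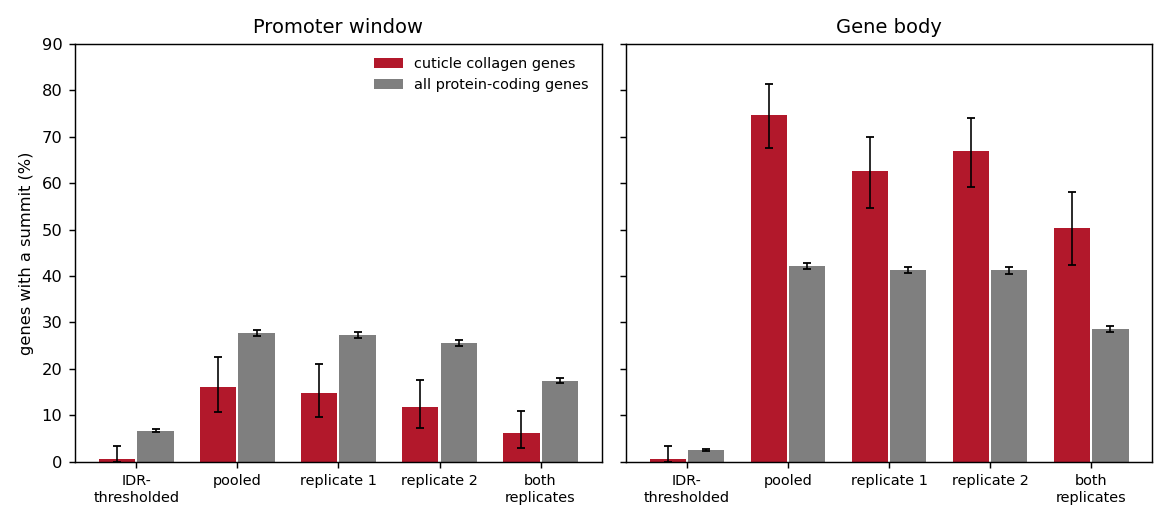
Percentage of genes (vertical axis) with a summit in the promoter window (left panel) and in the gene body (right panel) for each list and for both replicates' lists together, cuticle collagen genes in red and all protein-coding genes in grey; error bars are exact 95% intervals. In the promoter window the collagen genes lie below all genes in every list, and in the gene body they lie above them in the loose lists, at 74.8% against 42.2% in the pooled list.

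The gene with the IDR-thresholded summit was col-38 (WBGene00000615), a cuticle collagen gene encoding 287 residues on the minus strand of chromosome II, from 8568035 to 8569088. Its summit at II:8569527 had a score of 113 and rank 1043 of the 1841 IDR-thresholded peaks. The replicates' own lists gave 50.4 in replicate 1 and 68.8 in replicate 2, with summits 49 bp apart. The summit lay 439 bp upstream of col-38 and 400 bp upstream of rpl-5 on the opposite strand, which encodes a protein of the large ribosomal subunit, within an annotated exon of a non-coding RNA. The peak was therefore counted for both genes, and the data do not assign it to either.

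A further 2 genes lay just under the lowest IDR-thresholded score of 65.6, and both had the highest −log10 q of the pooled list, 3.78, which 2982 pooled peaks share. col-71 had a summit at II:3502866 with a pooled score of 55.3 (rank 2288), 296 bp upstream of its 5′ end and 102 bp upstream of the neighbouring gene Y49F6B.2. The score was 37.1 (rank 1692) in replicate 1 and 16.2 (rank 6062) in replicate 2, and their summits were 34 bp apart. col-120 had a summit at IV:9261854 with a pooled score of 55.2 (rank 2292), 67 bp upstream of its 5′ end. That position lies in the 3′ UTR of flh-1, a transcription factor gene. The replicates gave 28 in replicate 1 and 22.7 in replicate 2, with summits 2 bp apart. Among the 1841 highest peaks of replicate 1 alone, col-38 and col-71 were occupied, and among those of replicate 2 only col-38. In the pooled list these 3 genes, col-38 included, were the only collagen genes with a promoter-window summit at a q of at most 0.05, and the median −log10 q of the 33 summits there was 0.247. In the replicates' own lists col-132 and col-2 also reached it in replicate 1, with −log10 q of 2.85 and 1.5, and col-84 in replicate 2 with 2.62.

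Below these, scores were lower. The next pooled scores were 31.5 at col-86, 29.6 at col-158, 28.4 at col-2, 25.6 at col-157, 24.6 at col-46, 23.5 at col-89 and 23.1 at col-87. The col-86 summit had 10.2 in replicate 1 and 18.6 in replicate 2; the highest replicate 1 score in the windows of this gene, 11.7, lay at another 5′ end. At col-158 replicate 1 had 15.6 and replicate 2 had 12.9. At col-2 replicate 1 had 18.6 and replicate 2 had 8.61, with summits 6 bp apart, and the pooled summit lay 255 bp upstream of ndc-80, a kinetochore gene, and 431 bp upstream of col-2. Replicates 1 and 2 gave 17.7 and 8.8 at col-157, 12.9 and 11.3 at col-89, and 14.1 and 9.04 at col-87, and col-46 had 17.7 in replicate 1 and no summit in replicate 2. The window summits of both replicates lay within 100 bp of each other in 7 of the 10 genes that had both. The exceptions were col-86 at 149 bp, col-157 at 170 bp and col-84 at 567 bp, and col-84 had no pooled promoter-window summit. Summits within 100 bp were thus found in 4.29% of collagen genes, of the 6.13% with both. Over all protein-coding genes it was 13.7%, of the 17.5% with both. Scores of different lists have different scales, so only the order within a list can be read.

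**Figure D2:**
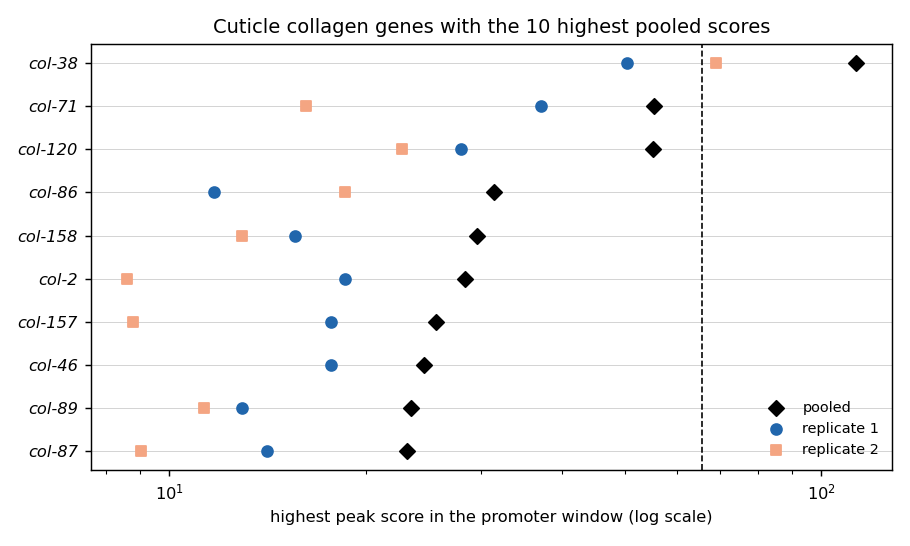
Highest peak score in the promoter window (horizontal axis, log scale, no unit) of the 10 cuticle collagen genes with the highest pooled scores, with diamonds for the pooled list, circles for replicate 1 and squares for replicate 2; the dashed line is the lowest score of the IDR-thresholded list, which applies to the diamonds. Symbols of 1 gene can stand for different summits in its windows, as at col-86. The col-38 diamond at 113 is the single one to the right of the line, and col-46 has no square.

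The sequences at 4 of these summits are given to show what kinds of site carry them, outside and inside coding sequence: each line is the plus strand of ce11 over 101 bp centred on the pooled summit, with the 11 bases at the summit in capitals. They are col-38 at II:8569477-8569577 (GC content 51.5%), col-71 at II:3502816-3502916 (42.6%), col-158 at V:11829453-11829553 (36.6%) and col-86 at II:13096673-13096773 (55.4%). The col-86 site is coding sequence of the gene itself, 121 bp upstream of a 5′ end annotated inside it, and the other 3 lie outside coding sequence. Over all 33 pooled promoter-window summits the GC content of 101 bp ran from 24.8% to 65.3%.
col-38: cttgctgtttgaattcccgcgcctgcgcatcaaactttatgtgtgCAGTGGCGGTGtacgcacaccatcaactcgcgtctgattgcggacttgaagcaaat
col-71: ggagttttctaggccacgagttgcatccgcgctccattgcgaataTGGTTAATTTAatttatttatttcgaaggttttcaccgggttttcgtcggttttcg
col-158: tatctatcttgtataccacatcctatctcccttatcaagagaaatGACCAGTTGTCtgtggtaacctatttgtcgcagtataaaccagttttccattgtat
col-86: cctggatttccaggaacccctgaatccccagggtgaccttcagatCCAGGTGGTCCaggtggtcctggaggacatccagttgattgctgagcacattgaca

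Across the family, the 33 pooled promoter-window summits of the 26 genes were a mixed set. Of these, 24 lay upstream of the nearest own 5′ end and 9 at or downstream of it, at a median of 121 bp upstream. Coding exons held 13 and intergenic sequence 13. Another protein-coding gene contained 10 of them, and 3 lay in the promoter window of another gene as well. The highest score per gene had a median of 20.2 and a range of 13.8 to 113, against a median of 27.6 over the 5525 protein-coding genes with such a summit. In replicate 1 the medians were 12.8 in collagen genes and 15.3 in all genes, and in replicate 2 they were 11.3 and 16. Genes with no summit have no score, so these medians describe only the genes that were listed.

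**Figure D3:**
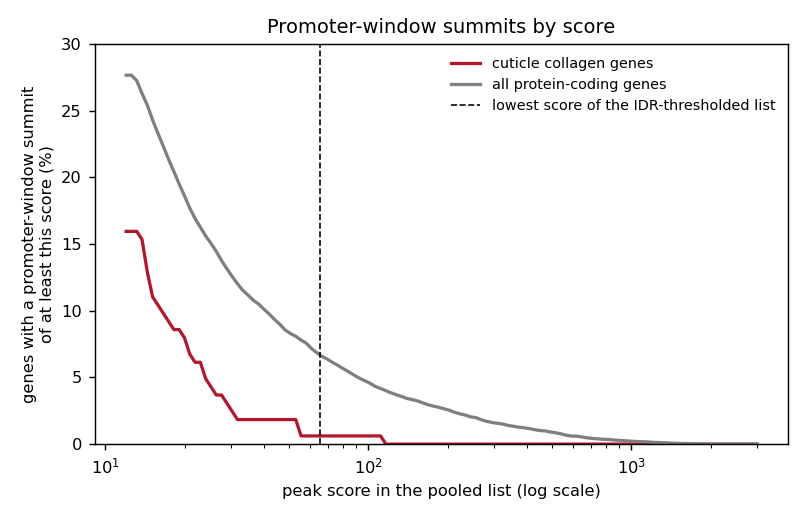
Percentage of genes (vertical axis) with a promoter-window summit of at least a given score in the pooled list (horizontal axis, log scale, no unit), cuticle collagen genes in red and all protein-coding genes in grey; the dashed line marks the lowest score of the IDR-thresholded list, 65.6. The red curve starts at 16% and ends at the col-38 score of 113, and the grey curve starts at 27.7%.

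On X, the collagen genes had promoter summits at a share near that of all X genes. A pooled summit lay in the window of 3 of 27 X collagen genes (11.1%, interval 2.35% to 29.2%), against 11.4% of all X genes. On autosomes it was 23 of 136 (16.9%, interval 11% to 24.3%), against 30.2% of all autosomal genes. X minus autosomes among collagen genes was −5.8 percentage points, and its Newcombe interval of −16 to 12 points holds 0. The 3 X genes were col-44 with a pooled score of 20.6, col-173 with 17.7 and col-169 with 14. The col-44 score of 20.6 belongs to a summit inside the neighbouring gene col-9, and a further pooled summit upstream of col-44 had 16.1. Replicate 1 had a summit of 13.2 inside col-9 and 1 of 13.6 upstream of col-44 outside it, and replicate 2 had none. col-173 had 8.39 in replicate 2 and none in replicate 1, and col-169 had none in either replicate. Both replicates had a promoter summit in 0 of 27 X collagen genes, which allows a share of up to 12.8%, against 4.21% of all X genes. Among autosomal collagen genes it was 10 of 136 (7.35%), against 19.6% of all autosomal genes. By chromosome the pooled count was 2 of 21 on I, 6 of 29 on II, 2 of 12 on III, 6 of 41 on IV and 7 of 33 on V. Shares of all genes were not computed for single autosomes. The intervals were wide, the widest on III (2.09% to 48.4%), so these counts do not rank the chromosomes.

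Among the genes named for roller and squat mutants, 4 rol- and 3 sqt- genes, none had an IDR-thresholded promoter summit. Only sqt-3 and sqt-2 had a pooled one. Over all protein-coding genes the shares were 6.68% and 27.7%, and so few genes cannot be set apart from either. sqt-3 encodes a cuticle collagen needed for normal body shape. Its pooled summit, with a score of 19.8, lay in an intron, 53 bp upstream of a 5′ end annotated inside the gene. Replicate 2 had 15.8 in the promoter window. Replicate 1 had none there, and its highest score in the gene body was 11. sqt-2 had 14.3 at 350 bp upstream and none in either replicate. rol-1, rol-3, rol-6, rol-8 and sqt-1 had no promoter-window summit in any list. rol-6 and sqt-1 encode collagens whose mutant forms twist the body. Inside the genes, pooled scores were 33.2 at rol-1, 18.6 at rol-6, 13.4 at sqt-1, 28.3 at sqt-2 and, apart from its promoter summit, 15.3 at sqt-3, and rol-8 had a summit in replicate 2 only (15.5). rol-3 stood apart from the family in this too. Its highest body summit, at V:8228983 in an intron, had a pooled score of 197 (rank 624), with 93.8 in replicate 1 and 107 in replicate 2. It was the only IDR-thresholded summit inside any of the 163 genes. It lay 9426 bp downstream of the rol-3 5′ end, and the nearest 5′ end was that of K07C11.10, 2071 bp away.

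Where promoters had few summits, gene bodies had many, though nearly all of low score. This count was added after the values were seen, and no list from untagged worms or input was used here, so XND-1 binding and background in these bodies cannot be told apart. A pooled summit lay between the annotated ends of 122 of 163 collagen genes (74.8%, interval 67.5% to 81.3%), against 42.2% of all protein-coding genes, although the collagen genes are shorter, with a median length of 1221 bp against 2027 bp. Replicate 1 had 102 (62.6%), against 41.3% of all genes, and replicate 2 had 109 (66.9%), against 41.2%. Both replicates had a body summit in 82 collagen genes (50.3%, interval 42.4% to 58.2%), against 28.6% of all genes. In the IDR-thresholded list the share was not higher, with 1 of 163 (0.613%, the rol-3 summit) against 2.58%. Its interval of 0.0155% to 3.37% holds 2.58%, so a lower share is not shown. On X, 17 of 27 collagen genes had a pooled body summit (63%, interval 42.4% to 80.6%), against 28.2% of all X genes, and on autosomes 105 of 136 did (77.2%, interval 69.2% to 84%), against 44.4%. Of the 163 genes, 100 had a pooled summit in the body and none in the promoter window, 22 had both, 4 had a window summit alone and 37 had neither.

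Per length the contrast was wider. Collagen gene bodies held 0.707 pooled summits per kb of gene, against 0.263 over all protein-coding genes, and 0.919 per kb of coding sequence, against 0.31. Coding exons held 85.6% of the collagen body summits, against 46.4% of those of all genes. On X the density was 0.768 per kb of gene in collagen genes, against 0.123 in all X genes. The replicates gave 0.566 against 0.241 in replicate 1 and 0.562 against 0.238 in replicate 2. Along the gene, summits piled up past the 5′ end. From 200 to 1200 bp downstream of the farthest upstream 5′ end there were 80.4 pooled summits per kb per 100 collagen genes, against 29.3 for all genes, while within 500 bp upstream there were 27, against 43.4. The 100 bp bin with the most was 600 to 700 bp downstream, with 17.2 summits per 100 collagen genes, against 2.86 per 100 of all genes. Replicate 1 gave 62 downstream and 22.1 upstream, against 26.6 and 43.3 for all genes, and replicate 2 gave 67.5 and 19.6, against 27.2 and 40.1.

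**Figure D4:**
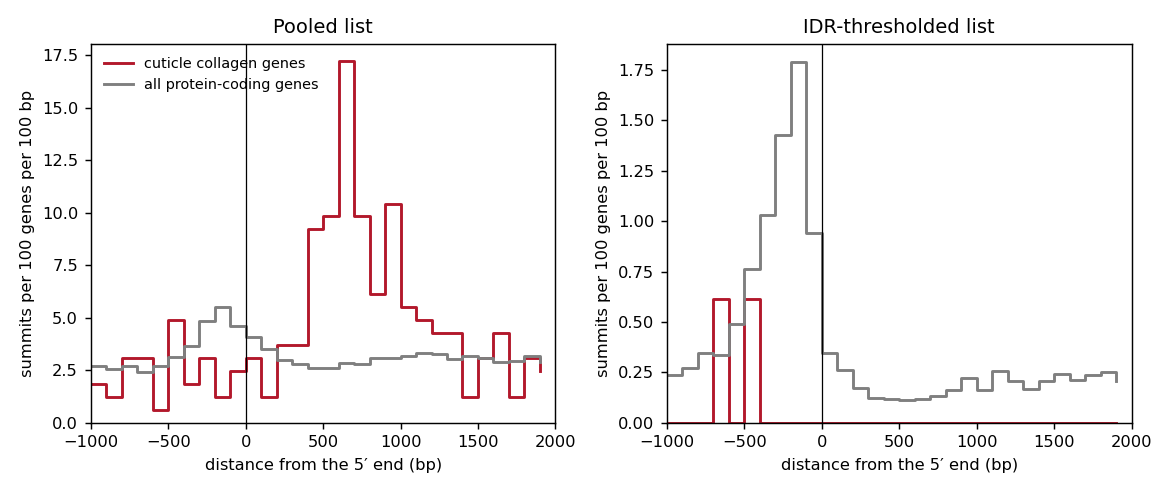
Summits per 100 genes in bins of 100 bp (vertical axes, which differ in scale) by distance from the farthest upstream annotated 5′ end (horizontal axis, negative upstream) in the pooled list (left) and the IDR-thresholded list (right), cuticle collagen genes in red and all protein-coding genes in grey. In the pooled list the collagen genes peak at 600 to 700 bp downstream with 17.2 summits per 100 genes, while all genes peak just upstream of the 5′ end; in the IDR-thresholded list each red step is 1 summit.

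The body summits were weak, as were those of other genes: the highest body score per gene had a median of 22.5, against 21.3 over all protein-coding genes with a body summit. The 122 collagen genes held 181 body summits, 51 genes had more than 1, and the median score was 20.4, near the 19.2 of the whole pooled list. Of these summits 180 were distinct, because 1 lay in the overlapping genes col-46 and col-47 and was counted for each. The densities above count it once. A q of at most 0.05 was reached by 22 (12.2%), against 18.7% of all pooled summits, and the median −log10 q was 0.274, against 0.22. After rol-3 the highest body scores were 53.9 at col-132, 50.3 at col-85, 49.2 at col-37, 44.7 at col-133, 38.9 at col-77, 37.6 at col-83, 36.7 at col-88 and, on X, 36.5 at col-174, all under the lowest IDR-thresholded score. col-19, the X gene of an adult cuticle collagen, had 35. Replicates 1 and 2 gave 27.2 and 29 at col-132, 33.3 and 13.7 at col-85, and 30.2 and 17.2 at col-37. They gave 14.7 and 28.7 at col-133 and 17.1 and 21.6 at col-83, and at col-88 replicate 1 had none and replicate 2 had 25.8. Outside every promoter window lay 163 of the 181 summits.

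Coding sequence at 6 body summits is shown because it holds the glycine codons of the repeat, to differing degrees. Each line gives 121 bp around the body summit on the coding strand, with in-frame glycine codons in capitals: col-37 at V:12167126-12167246 on the minus strand, col-133 at IV:14098639-14098759 on the minus strand, col-88 at III:41370-41490 on the plus strand, col-19 at X:422122-422242 on the plus strand, rol-6 at II:8733626-8733746 on the plus strand and sqt-1 at II:11337335-11337455 on the minus strand. Glycine made up 15 of 40 whole codons at col-37, 13 of 39 at col-133, 10 of 39 at col-88, 10 of 40 at col-19, 9 of 40 at rol-6 and 5 of 39 at sqt-1. The summit is base 61 of each line, and at col-19 and sqt-1 it falls in a stretch with no glycine codon, so a summit need not lie in the repeat. Most of the glycine codons are GGA, and the GC content of these stretches was 67.8%, 62.8%, 55.4%, 54.5%, 53.7% and 50.4% in the same order.
col-37: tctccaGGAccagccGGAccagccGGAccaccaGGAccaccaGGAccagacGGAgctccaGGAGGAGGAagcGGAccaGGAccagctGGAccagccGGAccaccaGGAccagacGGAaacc
col-133: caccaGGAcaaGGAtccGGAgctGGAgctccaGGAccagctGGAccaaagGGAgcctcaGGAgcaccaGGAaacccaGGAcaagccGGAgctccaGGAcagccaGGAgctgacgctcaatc
col-88: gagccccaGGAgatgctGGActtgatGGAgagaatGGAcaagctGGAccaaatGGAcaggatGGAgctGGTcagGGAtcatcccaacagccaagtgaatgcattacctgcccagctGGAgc
col-19: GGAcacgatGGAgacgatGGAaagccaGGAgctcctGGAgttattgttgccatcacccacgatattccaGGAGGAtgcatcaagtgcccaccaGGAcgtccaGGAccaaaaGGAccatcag
rol-6: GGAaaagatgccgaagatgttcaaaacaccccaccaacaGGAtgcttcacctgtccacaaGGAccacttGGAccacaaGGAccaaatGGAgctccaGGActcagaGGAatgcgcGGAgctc
sqt-1: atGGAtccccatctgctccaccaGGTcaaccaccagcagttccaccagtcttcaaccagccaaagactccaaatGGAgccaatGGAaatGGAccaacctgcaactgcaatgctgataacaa

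Base composition moved with the body summits. The 101 bp around collagen body summits had a median GC content of 58.4%, against 39.6% for all pooled summits, 41.6% for IDR-thresholded summits and 35.4% for the whole genome. Coding GC content had a median of 55.1% over the 163 genes (39.5% to 62.6%), against 42.5% over all protein-coding genes. When all protein-coding genes were divided into 10 equal bins by coding GC content, the share with a pooled body summit was 14.5% in the lowest bin, 58.7% in the ninth and 55.3% in the highest. Promoter shares of all genes rose over these bins as well, so the relation was not confined to body summits. From the lowest to the highest bin they went from 8.86% to 40.5% in the pooled list and from 0.801% to 12.9% in the IDR-thresholded list. The highest bin, 49.6% to 66.7% GC, held 140 of the 163 collagen genes. Within it 102 of the 140 had a body summit (72.9%), against 55.3% of all its genes, and the density was 0.758 summits per kb, against 0.438. In the same bin a pooled promoter summit was listed for 25 of the 140 (17.9%), against 40.5% of all its genes. The part of GC content in the body summits was not tested beyond these values.

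Summits were few in genes with close copies. At least 50% of the coding 31-base words occurred in another gene for 29 collagen genes, and 73 collagen genes shared none. A pooled body summit was listed for 4 of the 29 (13.8%), against 6.84% of all protein-coding genes with as much sharing. It was listed for 118 of the other 134 (88.1%, interval 81.3% to 93%), against 43.5% of all genes with less. A pooled promoter summit was listed for 3 of the 29 (10.3%), against 9.03%, and for 23 of the 134 (17.2%, interval 11.2% to 24.6%), against 28.4%. The IDR-thresholded promoter count was 0 of 29, against 3.42%, and 1 of 134 (0.746%, interval 0.0189% to 4.09%), against 6.8%. How the authors treated reads that match several places is not given in the sources used here, so a missing summit in these 29 genes and reads that were not placed cannot be told apart.

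**Figure D5:**
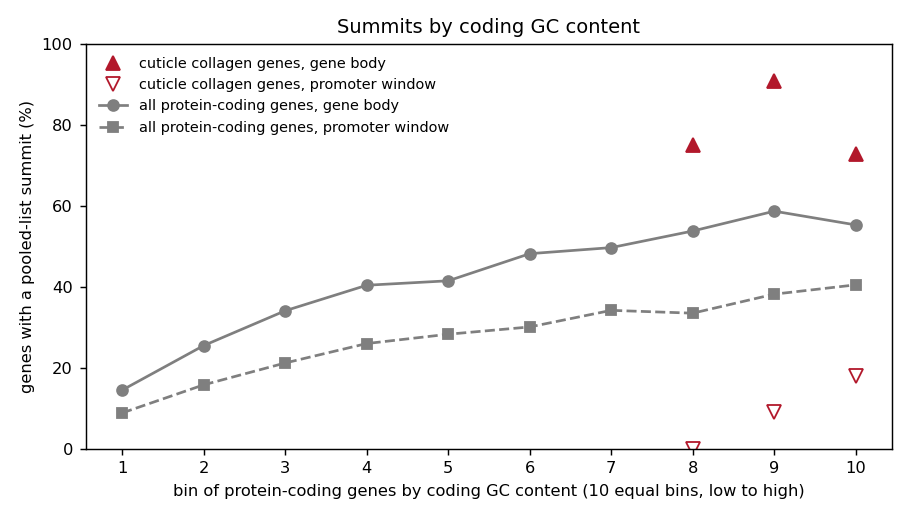
Percentage of genes with a pooled-list summit (vertical axis) in 10 equal bins of protein-coding genes ordered by coding GC content (horizontal axis, low to high), with red triangles for the cuticle collagen genes of bins that hold at least 8 of them and grey lines for all protein-coding genes, in the gene body (filled triangles, solid line) and the promoter window (open triangles, dashed line). In the highest bin the collagen genes lie above all genes for the body, at 72.9% against 55.3%, and below them for the window, at 17.9% against 40.5%.

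Collagen promoters were also described by their letters; TATAAA is the core of the TATA box, and TGATAA is a form of the site that GATA factors, which act in the epidermis among other tissues, are known to bind. A match is not a site. In the 300 bp from 250 bp upstream to 50 bp downstream of the 5′ end, the letters TATAAA stood on either strand in 106 of 163 collagen promoters (65%), against 38% of all promoters and 30.4% of those of genes with an IDR-thresholded summit. The letters TGATAA on either strand stood in 49 (30.1%), against 30.2% of all promoters and 23.4% of the IDR-thresholded ones. The median GC content of the collagen promoters was 38%, against 34.3%, and they held 10.3 CG dinucleotides on average, against 9.41 in all promoters and 13 in those with an IDR-thresholded summit. Collagen genes had 1.16 annotated 5′ ends on average, against 1.47, so fewer windows were searched per gene, and 141 had a single one. Of the 45 genes next to another collagen gene 6 had a pooled promoter summit, and of the 118 others 20 did, against 27.7% of all protein-coding genes. Whether these groups differ was not tested, and genes with close copies were not set apart in them.

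Lists of other cuticle pathway genes had no IDR-thresholded promoter summit, and in neither list could they be set apart from the background. No IDR-thresholded promoter summit was found for 15 collagens named for body shape such as dpy- and bli- genes, 3 basement membrane collagens, 13 genes of collagen folding, processing and crosslinking, 44 genes of cuticle matrix and moulting, or 9 transcription factor genes of the epidermis. For the 44 genes this allows a share of up to 8.04%, and for the smaller lists more, so none of these limits lies under the 6.68% of all genes. A pooled promoter summit was listed for 4 of 15 (26.7%), 1 of 3 (33.3%), 4 of 13 (30.8%), 7 of 44 (15.9%) and 4 of 9 (44.4%) in the same order, against 27.7% of all genes. The intervals were 7.79% to 55.1%, 0.84% to 90.6%, 9.09% to 61.4%, 6.64% to 30.1% and 13.7% to 78.8%, and each holds 27.7%. The highest score of each of 4 lists, named after the values were seen, was 58.9 at cutl-1, which encodes a cuticlin-like protein, 40.3 at dpy-11, which encodes a thioredoxin-like enzyme, 36.3 at the collagen gene bli-6 and 22.2 at nhr-23, a nuclear receptor of the moulting cycle. Body-shape collagens had pooled body summits in 13 of 15 genes (86.7%, interval 59.5% to 98.3%), against 42.2% of all genes. Other cuticle pathway lists had body shares above 42.2% too. The share was 69.2% (interval 38.6% to 90.9%) for folding, processing and crosslinking and 66.7% (29.9% to 92.5%) for the transcription factors, and both intervals hold 42.2%. For cuticle matrix and moulting it was 59.1% (43.2% to 73.7%), so a body share above that of all genes was not particular to collagens. Summits per kb were not computed for these lists. Compared with other large somatic families, the IDR-thresholded promoter share was 0.613% in the 163 genes, 1.67% in C-type lectin genes (4 of 240) and 0.712% in srh and sri chemoreceptor genes (2 of 281). Their pooled promoter shares were 16% in the 163 genes, 9.58% in lectin genes and 9.96% in chemoreceptor genes, and the pooled body shares were 74.8%, 31.2% and 15.3%. A list of 14 germline genes had 10 with an IDR-thresholded promoter summit (71.4%), led by the cohesin genes coh-4 (1549) and coh-3 (1369). These 14 genes were chosen as loci where XND-1 is known to act. Their high share was thus built into the choice and is no independent contrast to the collagen genes. A pooled body summit was listed for 13 of the 14 (92.9%).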

How the data were processed

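ChIP-seq of GFP-FLAG-tagged XND-1 was done in 2 biological replicates of 1 group. Per the deposited descriptions of the files, the authors called peaks against a control alignment for each replicate and for both pooled, and thresholded them by IDR; the aligner, caller and IDR cut-off are not given in the sources used here. The deposited score of each peak (signalValue) has no unit, the deposited −log10 q is that of the caller, and the deposited summit offset was added to the peak start. The ce10 copies and the control were not used here.

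Genes, 5′ ends and sequences came from WBcel235 (Ensembl annotation release 115 and the RefSeq genome of the same build). Proteins were translated from that annotation. Window assignment was tested on simulated data. No test between samples is possible with 1 group, so shares are given with exact intervals beside those of all protein-coding genes, at a confidence level of 95%; the interval of the X and autosome difference is Newcombe's. Genes are named as those with an IDR-thresholded summit, the 10 highest pooled scores, X genes with a summit, and rol- and sqt- genes; others named were chosen after their values were seen. The members and lists were chosen with earlier results of these data known. Tools were biopython 1.88, scipy 1.17.1, pandas 2.3.3, numpy 2.4.6 and Python 3.11.15.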

Additional observations from a re-analysis of the deposited data

How the results depend on the processing

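The IDR-thresholded promoter count of 1 was 0 with a window of 200 bp upstream to 100 bp downstream and in the higher-scoring 50% of the list, 2 with a window of 1000 bp upstream to 500 bp downstream and 3 (col-38, col-71 and col-120) with 2 times as many pooled peaks. With as many top peaks of a single replicate it was 1 to 2, the higher value without replicate 2. The share stayed below that of all genes in each of these. The pooled count of 26 was 13 with the narrower window, 66 with the wider one, 50 with any overlap of the peak and 14 in the higher-scoring 50% of the list, and 19 to 24 in single replicates. With the wider window the share was 40.5%, against 39.5% of all genes, a gap inside the interval of 32.9% to 48.4%. The count in both replicates, 10, was 4 and 27 with the narrower and wider windows, 22 with any overlap and 6 in the higher-scoring 50% of each list. Its share stayed below that of all genes in each of these, at 16.6% against 27% with the wider window.

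X minus autosomes ran from −9.53 to −0.681 points. The median score of 20.2 was 25.1 in the higher-scoring 50% of the list, and 11.3 to 12.8 in single replicates, whose scores have another scale. The body count of 122, added after the values were seen as were its alternatives, was 1 in the IDR-thresholded list and 82 to 118 under the others. Without the 29 genes with close copies, also added later, the IDR-thresholded, pooled, both-replicate and body counts were 1, 23, 9 and 118. The other alternatives kept each count within 1.5 times. No paired analysis was possible because there is 1 group. Without read counts, depth cannot be set beside any listed or missing summit.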
